A study of Arabidopsis thaliana with 12 samples.

Results

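The peaks of REV (REVOLUTA, AT5G60690) were taken from a chromatin immunoprecipitation and sequencing (ChIP-seq) experiment on Arabidopsis thaliana seedlings, and all rows of the REV peak list on the 5 nuclear chromosomes were used. These were 5814 peaks, of 38038 nuclear peaks in the 6 lists of the series. The REV plants were of the Ler ecotype, were 10 days old and carried REVg:2xYPet-3xHA, a REV protein tagged at its C-terminus with 2xYPet-3xHA, which the labels place at the endogenous locus while the series text calls the seedlings transgenic. The immunoprecipitation used an antibody against GFP, which recognises the fluorescent protein YPet, and the peaks were called against the input DNA of the same line. The sources used here do not say whether the line was 1 transgenic event or whether an untagged REV copy was present. The other lists used for comparison came from lines of the same ecotype and age with the same tag on PHB, PHV, ICU4, ATHB8 or TPL. The series text speaks of duplicates, but each protein had 1 list. No value below therefore has a replicate error, no test across samples was possible, and a difference between lists cannot be told apart from a difference between libraries. Intervals are Wilson 95% intervals. They cover counting error only and treat peaks as independent, which neighbouring peaks are not.

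REV is a transcription factor of the HD-ZIPIII family, proteins with a homeodomain followed by a leucine zipper, which bind DNA as dimers. In the shoot these proteins promote the upper (adaxial) side of the leaf, the formation of meristems and the patterning of vascular tissue, and their messenger RNAs are cut by the microRNAs miR165 and miR166. Genes of the HD-ZIPII class and of auxin synthesis are known REV targets. ICU4, also called CORONA or ATHB15, and PHB, PHV and ATHB8 are the other members of the family, and TPL (TOPLESS) is a co-repressor that other transcription factors bring to DNA. Arabidopsis chromosomes have gene-rich arms and gene-poor, repeat-rich DNA around the centromere.

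REV peaks were narrow and mostly modest. Median width was 99 bp, from 56 to 3993 bp, and the median fold enrichment over the local background was 3.72, from 1.47 to 15.4. The authors' −log10 q ran from 1.34 to 66.6, with a median of 4.94. The pileup, the coverage at the summit, ran from 13.5 to 84.3. Read depth is unknown, since the list holds no read counts. A fold enrichment of 8 or more was reached by 33 peaks only.

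More REV peaks lay beyond 2000 bp of a protein-coding gene than within it. The summit of 2346 peaks, or 40.4% (39.1 to 41.6), was inside a protein-coding gene or within 2000 bp of its ends, and these are called near-gene peaks. The other 3468 peaks are called distant. This majority depended on the limit and on what counts as a gene, since the near-gene share was 50.2% with a limit of 5000 bp and 90.9% when genes of every class, pseudogenes included, were counted. Among peaks with a −log10 q at or above the median of the list it was 24.97%. Of all bases of the nuclear chromosomes, 82.0% lie within 2000 bp of a protein-coding gene, well above the 40.4% of peaks. The near-gene share was highest on chromosome 1, at 49.8% of 1329 peaks, and lowest on chromosome 4, at 34.7% of 982. It was 37.2% of 974 peaks on chromosome 2, 41.1% of 1110 on chromosome 3 and 37.0% of 1419 on chromosome 5. Distant peaks were in the majority on every chromosome, by a narrow margin on chromosome 1. Near-gene summits were inside the gene in 1582 cases (67.4%) and outside in 764.

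The distant peaks sat in a small part of the genome. In gene-poor surroundings, with fewer than 10 protein-coding genes within 50 kb to each side, lay 85.5% of distant peaks and 5.41% of near-gene peaks. This contrast is partly set by the definitions, since a summit more than 50 kb from every protein-coding gene is always gene-poor. The gene-poor share of all bases was not counted. When the chromosomes were divided into 1193 windows of 100 kb, 252 windows had no REV peak, the median was 2 peaks, and 95 windows (7.96%) held 50% of all peaks. Windows with 4 genes or fewer had 25.2 peaks on average, of which 24.6 were distant. With 20 to 29 genes the mean was 2.57 peaks, of which 2.23 were near-gene. The near-gene mean lay between 1.87 and 2.23 in all classes of windows with 10 genes or more, while the distant mean fell with gene content in every step.

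**Figure D1:**
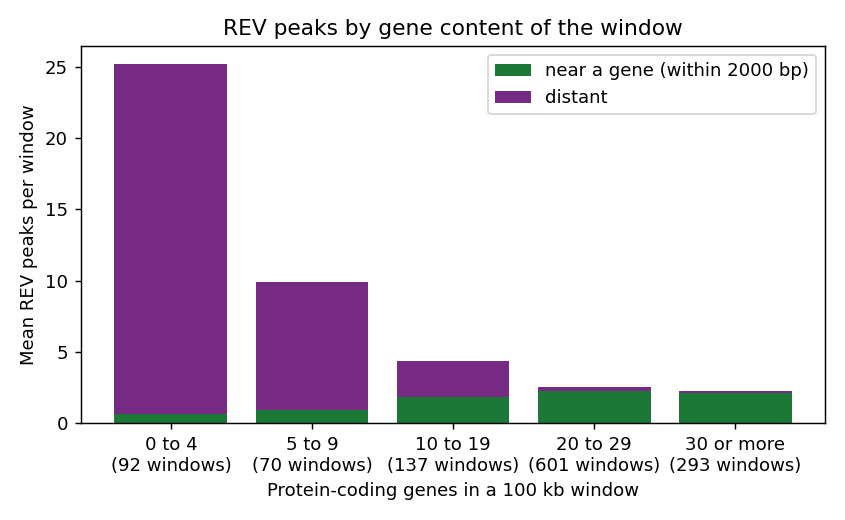
Mean number of REV peaks per 100 kb window, for windows grouped by the number of protein-coding genes they hold. Each bar is divided into near-gene and distant peaks; the distant part falls from 24.6 peaks in windows with 4 genes or fewer to 0.113 in windows with 30 or more.

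Each chromosome had a long stretch of dense peaks. On chromosome 5, 493 peaks, or 34.7% of its peaks, lay between 11600001 and 12500000, where every 100 kb window had at least 10, and a single one of them was near a gene. On chromosome 4, 436 peaks (44.4%) lay between 2900001 and 4600000, 10 of them near a gene. The stretch on chromosome 1, from 14800001 to 15900000, held 326 peaks, that on chromosome 3, from 13400001 to 14000000, held 143, and that on chromosome 2, from 3500001 to 4000000, held 116. The ATHB8 list had 331 peaks in the chromosome 5 stretch, 420 in that of chromosome 4 and 262 in that of chromosome 1. The TPL list, the longest of the series, had 0, 5 and 2 there. The densest window of the genome, from 11900001 to 12000000 on chromosome 5, held 99 REV, 19 ATHB8, 13 ICU4, 1 PHV and no PHB or TPL peaks. It has no protein-coding gene. Among the windows with most near-gene peaks, the first was at 22500001 to 22600000 on chromosome 3, with 33 near-gene and 14 distant peaks among 18 genes.

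Peaks also came in tight runs. A cluster was defined as at least 3 peaks with neighbouring summits no more than 2000 bp apart. The list had 549 clusters, with 3413 peaks or 58.7% of the list (57.4 to 60.0), and a median of 4 peaks over 2380 bp. Clusters took in 75.8% of distant and 33.5% of near-gene peaks. Distant peaks alone made up 332 clusters, near-gene peaks alone 167, and 50 were mixed. Of the 79 clusters of 10 or more peaks, 61 held distant peaks only and a single cluster near-gene peaks only. A further 1519 peaks (26.1%) had no other REV summit within 2000 bp.

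The largest cluster was on chromosome 5, from 11228617 to 11268079, with 74 peaks in 39463 bp, a median fold enrichment of 5.36 and values from 2.83 to 7.40. The other lists had 13 ATHB8 peaks in it and none of PHB, PHV, ICU4 or TPL. Next came 46 peaks from 12142710 to 12166553 on chromosome 5, with a median of 4.07, 35 of them with the summit inside a pseudogene. The third, from 5563898 to 5578930 on chromosome 2, held 37 peaks with a median of 4.27. The fourth, from 16509852 to 16528825 on chromosome 1, held 35 peaks with a median of 3.57, 8 of them near genes, and also 43 ATHB8, 22 PHV and 19 PHB peaks. The fifth, from 15176723 to 15194527 on chromosome 1, held 34 peaks with a median of 4.61. A cluster on chromosome 2, from 13757 to 29413, also held 34 and was placed after it by chromosome order alone, with 2 PHB, 20 PHV, 50 ATHB8 and no TPL peaks. None of the first 5 clusters had a TPL peak. All 5 held ATHB8 peaks, at least 13 each.

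The annotation under the distant summits was mostly of 1 kind. Of the distant peaks, 2006 (57.8%) had the summit inside a pseudogene or transcribed pseudogene, against 156 (6.65%) of near-gene peaks. A further 1441 distant summits were outside genes of any class, and 528 (15.2%) were more than 2000 bp from all of them. Counting by gene, 770 of 3917 genes of the pseudogene class (19.7%) and 21 of 926 transcribed pseudogenes (2.27%) held a REV summit. The share was 4.06% of protein-coding genes and 5.41% of genes of all classes. The lengths of the genes were not taken into account in these shares. The gene table does not say which of its pseudogenes are transposon copies. The peaks were mapped to TAIR10, the genome of the Columbia ecotype, whereas the plants were Ler, and how far repeats differ between them was not tested.

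Near-gene peaks had the lower fold enrichment and were somewhat wider at the median. Their median fold enrichment was 3.32 (quartiles 2.98 and 3.86), against 3.997 for distant peaks (3.45 and 4.68), and their median −log10 q was 3.80 against 5.56. Among peaks with a −log10 q at or above the median of the list, the medians of fold enrichment were 4.27 and 4.41, a difference of -0.14 in place of -0.68. On single chromosomes the near-gene median ran from 3.32 to 3.42 and the distant median from 3.86 to 4.005, so the ranges did not overlap. Median width was 106.5 bp near genes and 94 bp away from them. A fold enrichment under 3 was seen in 25.6% of near-gene and 10.1% of distant peaks. At the upper end, 21 of the 33 peaks with a fold enrichment of 8 or more were near a gene. The strongest near-gene peak had 15.4 and the strongest distant peak 11.2.

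**Figure D2:**
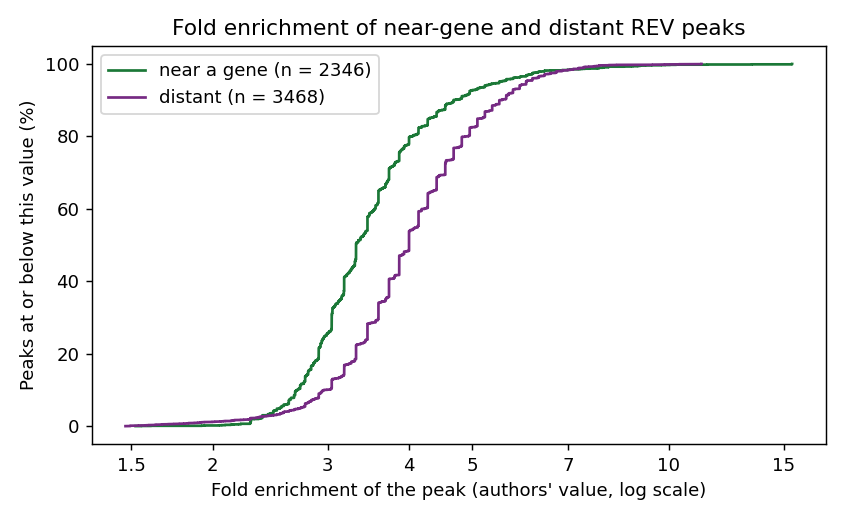
Cumulative share of REV peaks at or below each fold enrichment (authors' value, logarithmic axis), for 2346 near-gene and 3468 distant peaks. The distant curve lies to the right at the medians, 3.997 against 3.32, and the near-gene curve reaches further, to 15.4.

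The fold enrichment of many peaks followed from the pileup alone. The pileup plus 1, divided by the fold enrichment, has a lowest value of 5.52 in the list, and 3397 peaks (58.4%) were within 0.01 of it. In the peak caller's usual formula, which the sources used here do not state, this quotient is the local background plus 1. Distant peaks were at the lowest quotient in 70.2% of cases and near-gene peaks in 41.0%. The median quotient was 5.52 for distant and 5.70 for near-gene peaks. The highest 1% of distant peaks exceeded 30.3, and that of near-gene peaks exceeded 12.0. Most distant peaks thus stood where the quotient was at its minimum, and a small share stood where it was several times higher.

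Near-gene and distant REV peaks met different lists. A TPL peak overlapped, by at least 1 bp, 70.1% of near-gene REV peaks (68.2 to 71.9) and 1.93% of distant ones (1.52 to 2.45). For ICU4 the shares were 64.3% (62.4 to 66.2) and 7.58% (6.75 to 8.51). PHB overlapped 43.1% and 5.25%, and PHV 39.2% and 11.8%. The order was turned around for ATHB8, with 19.1% of near-gene (17.5 to 20.7) and 43.3% of distant peaks (41.6 to 44.9). Over all REV peaks the shares were 29.4% for TPL, 30.5% for ICU4, 33.5% for ATHB8, 22.8% for PHV and 20.5% for PHB. List lengths differed, with 12785 TPL, 8964 ICU4, 4813 ATHB8, 2872 PHV and 2790 PHB peaks. A longer list has more room to overlap, so the order of the lists is not read as a preference. Peak widths of the other lists were not taken into account. The near-gene share of each other list was not counted either. In the dense chromosome 5 stretch, for example, the TPL list had 0 peaks and the ATHB8 list 331. The near-gene and distant shares are therefore not read as a property of the REV peaks alone. Some of these shares moved with the criteria. When summits within 100 bp were asked for in place of overlap, near-gene shares were 27.9% for TPL and 39.9% for ICU4, with ICU4 above TPL. Among peaks with a −log10 q at or above the median of the list, near-gene shares were 62.9% for ICU4, 61.8% for TPL and 37.9% for ATHB8. No peak of any other list lay at 443 near-gene (18.9%) and 1795 distant peaks (51.8%), or 38.5% of all REV peaks. All 5 other lists met at 206 near-gene and 12 distant peaks. These 206 had a median fold enrichment of 4.54. Near-gene peaks held by 0, 1, 2, 3 and 4 other lists had medians of 3.45, 3.32, 3.18, 3.24 and 3.46, with no steady rise.

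The change with distance was gradual. TPL overlapped 77.9% of REV peaks with the summit inside a gene, 71.7% at 1 to 500 bp, 51.6% at 501 to 1000 bp and 37.2% at 1001 to 2000 bp. From 2001 to 5000 bp it overlapped 11.0%, from 5001 to 10000 bp 0.679%, and beyond that none of 1606 peaks up to 50000 bp and none of 702 farther away. ATHB8 overlapped 14.98% of peaks inside genes and rose to a highest share of 54.2% at 5001 to 10000 bp, then 34.9% beyond 50000 bp. PHB and PHV had their highest shares at 1 to 500 bp, 55.9% and 57.2%, and lower ones inside genes, 42.9% and 34.8%. ICU4 had 68.8% inside genes and 71.7% at 1 to 500 bp. How the peaks of each other list themselves spread with distance from genes was not counted.

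**Figure D3:**
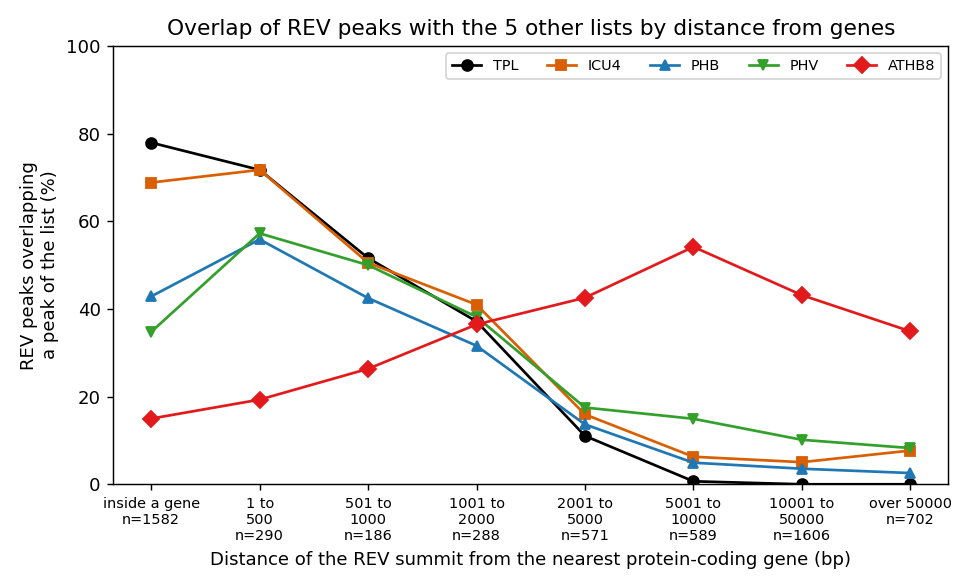
Share of REV peaks that overlap a peak of each other list, by the distance of the REV summit from the nearest protein-coding gene (n, REV peaks in each class). TPL falls from 77.9% inside genes to 0 beyond 10000 bp, and ATHB8 rises from 14.98% to 54.2% at 5001 to 10000 bp.

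Near-gene peaks were also split at the quartiles of fold enrichment. From the lowest to the highest of these groups, the ATHB8 overlap went from 10.9% to 40.9%, PHB from 37.1% to 56.1% and PHV from 33.05% to 54.02%. ICU4 had 65.2% in both, and TPL went from 73.9% to 63.1%. Median width was 91 bp in the lowest and 212 bp in the highest group, and wider peaks have more room to overlap. Among distant peaks, split in the same way, the ATHB8 overlap went from 31.1% to 61.1%, with median widths of 88 and 117 bp. Distant peaks that no other list held fell from 59.8% of the lowest group to 36.6% of the highest.

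Of the 20 genes with the highest REV fold enrichment, 12 had at that peak a peak of all 5 other lists, 14 of TPL and 3 of no other list, and the strongest were among those without TPL. At AT3G44713 on chromosome 3 a peak from 16260117 to 16260345, outside the gene, had a fold enrichment of 15.4, and at AT2G14775 on chromosome 2 a peak from 6354918 to 6355137, inside the gene, also had 15.4. Both had a pileup of 84.3, the highest of the list, and no peak of another list. Near the start of chromosome 2, AT2G01045 had a peak of 13.4 from 55082 to 55371 and AT2G01035 a peak of 11.5 from 52102 to 52421. Both overlapped PHB, PHV and ICU4 peaks, the first also an ATHB8 peak, and neither a TPL peak. AT1G47845, at 8.09 on chromosome 1, had no peak of another list, and its summit was inside the pseudogene AT1G47860. At AT5G28370 on chromosome 5 a peak of 9.72 was held by the 4 other HD-ZIPIII lists without TPL.

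The other 14 overlapped a TPL peak. GT18, a xyloglucan galactosyltransferase gene, had a fold enrichment of 10.3 at 24990481 to 24990877 on chromosome 5. P5CR, which encodes the last enzyme of proline synthesis, had 10.0 inside the gene, at 4787575 to 4787799 on chromosome 5, with PHV, ICU4 and TPL peaks. AT3G09690 had 9.86, from 2971474 to 2971865 on chromosome 3. PP2CG1, a protein phosphatase gene, had 9.40 inside the gene. HSPRO2, related to a nematode resistance gene of sugar beet, had a peak of 9.04 from 16700603 to 16701024 on chromosome 2 and a second peak beside it. DFL1, also called GH3.6, whose product joins auxin to amino acids, had 8.93 from 22134494 to 22135020 on chromosome 5, outside the gene. The jasmonate repressor gene JAZ3 had 8.79.

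DIC2, a mitochondrial dicarboxylate carrier gene, had 8.74 in a peak from 12686532 to 12687559 on chromosome 4. RKP, which encodes a ubiquitin ligase, had 8.53 inside the gene. AT4G29780 had 9.19 in a peak 1536 bp wide. The remaining 4 of the 20 were AT5G60680 at 8.97, AT1G77250 and AT5G28345 at 8.09 each and AT5G54530 at 8.06. AT5G60680 lies beside REV itself. Of the 20 summits, 8 were inside the gene.

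The widest near-gene peaks, chosen after their values were seen, were 1127 to 1782 bp wide in the first 10. SZF1, a salt-inducible zinc finger gene, had the widest, 1782 bp, from 20776877 to 20778658 on chromosome 3, with a fold enrichment of 5.54. RDUF2, a ubiquitin ligase gene, followed AT4G29780 with 1525 bp and 5.63. MYBR1, the MYB44 transcription factor gene, had 1348 bp, DIN10, a dark-inducible gene, 1333 bp, the ABC transporter gene PEN3 1200 bp and the C2-domain protein gene SRC2 1196 bp. Of the 10 widest, 9 overlapped peaks of all 5 other lists and 8 had the summit inside the gene.

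Among 1576 genes with a near-gene peak, 1123 had 1 peak, 278 had 2 and 175 had 3 or more. The genes with most peaks were also looked at after their values were seen. AT2G14395 on chromosome 2 had 12, AT3G61028 on chromosome 3 had 9, and the asparagine synthetase gene ASN1, the nitrate reductase gene NIA2 and the jasmonate synthesis gene LOX3 had 8 each. The 8 peaks of NIA2, between 14158672 and 14161504 on chromosome 1, had a median fold enrichment of 3.45 and a highest value of 3.95. Those of LOX3 had 3.30 and 3.65. Neither gene thus had a peak far above the median of the list. The immune receptor genes SNC1 (7 peaks) and RPP5 (6 peaks) lie in the same dense window of chromosome 4, from 9500001 to 9600000, which had 21 near-gene peaks, and the NADPH oxidase gene RBOHD had 6.

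The strongest distant peaks were very narrow at first. On chromosome 3, peaks from 13850634 to 13850719 and from 13859710 to 13859793 had fold enrichments of 11.2 and 11.1 and widths of 86 and 84 bp, and both overlapped an ATHB8 peak. The third was a broad peak of 951 bp from 22237877 to 22238827 on chromosome 3, at 10.4, with PHB, ICU4 and ATHB8 peaks. It was followed by 10.3 at 42787 to 43660 on chromosome 2, 9.86 at 12833149 to 12833224 on chromosome 5 and 9.57 at 4777548 to 4777638 on chromosome 4. The next were 9.45 at 2708512 to 2708724 on chromosome 2, 8.77 at 3123095 to 3123194 on chromosome 3, 8.32 at 3955142 to 3955348 on chromosome 2, inside the pseudogene AT2G10285, and 8.21 at 11770747 to 11771046 on chromosome 5, inside the pseudogene AT5G31927. None of these 10 overlapped a TPL peak, 8 overlapped an ATHB8 peak and 1 no peak of another list, the one at 12833149.

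The limit of 2000 bp cut through peaks of ordinary strength. The last peaks inside it, 1996, 1990 and 1990 bp from AT3G28830, CYTC-2 and AT1G43815, had fold enrichments of 3.03, 4.27 and 6.31. The first outside it, 2001, 2001 and 2003 bp from XTH28, APC2 and MAPR2, had 4.63, 3.86 and 3.32. The peak beside XTH28 overlapped PHB, PHV, ICU4 and TPL peaks.

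The REV gene lay in a run of peaks that the other lists mostly lacked. From 24363074 to 24418687 on chromosome 5, over 55.6 kb, the REV list had 40 peaks with neighbouring summits no more than 10 kb apart, a run delimited after its values were seen. The PHB, PHV and ICU4 lists had 4 peaks each there, ATHB8 1 and TPL 7, and 32 of the 40 REV peaks overlapped no peak of another list. The first 19 formed the only cluster of 10 or more peaks that was all near genes, from 24363074 to 24376977, with a median fold enrichment of 3.86 and no peak of any other list. The strongest were 2 of the 4 near-gene peaks of AT5G60680, 8.97 at 24384091 to 24384991 and 7.94 at 24386006 to 24387025, where other lists also had peaks. REV itself held 2 weak peaks, with fold enrichments of 2.28 and 2.70.

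The quotient of pileup plus 1 to fold enrichment also changed along this run. From the first peak inside REV to the end of the run, 12 peaks had a median quotient of 10.0, none below 8.71, against 5.52 as the lowest of the list, and none had a fold enrichment above 3.11. Over all 28 REV peaks within 25 kb of REV, the window used for the other genes below, the median was 7.92. Of these peaks, 7 were at the lowest quotient. Within 25 kb of PHB the REV list had 1 peak, at a quotient of 5.52, and within 25 kb of TPL 4, at a median of 6.12. The other lists also had quotients above their lowest at the gene of their own tagged protein. The median was 21.0 over 6 peaks at PHB in the PHB list (lowest 7.88) and 32.0 over 3 peaks at PHV in the PHV list (7.63). It was 12.6 over 9 peaks at ICU4 in the ICU4 list (7.90) and 14.7 over 2 peaks at ATHB8 in the ATHB8 list (7.54). At TPL it was 95.5 over 16 peaks in the TPL list (25.3). Medians at the other tagged genes were lower, some close to the lowest value and some above it. The highest were 38.3 in the TPL, 10.5 in the PHB, 10.3 in the PHV and 8.27 in the ICU4 list, each at REV. For the ATHB8 list it was 11.0, at ICU4, from 1 peak. The number of copies of the tagged loci was not analysed here.

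**Figure D4:**
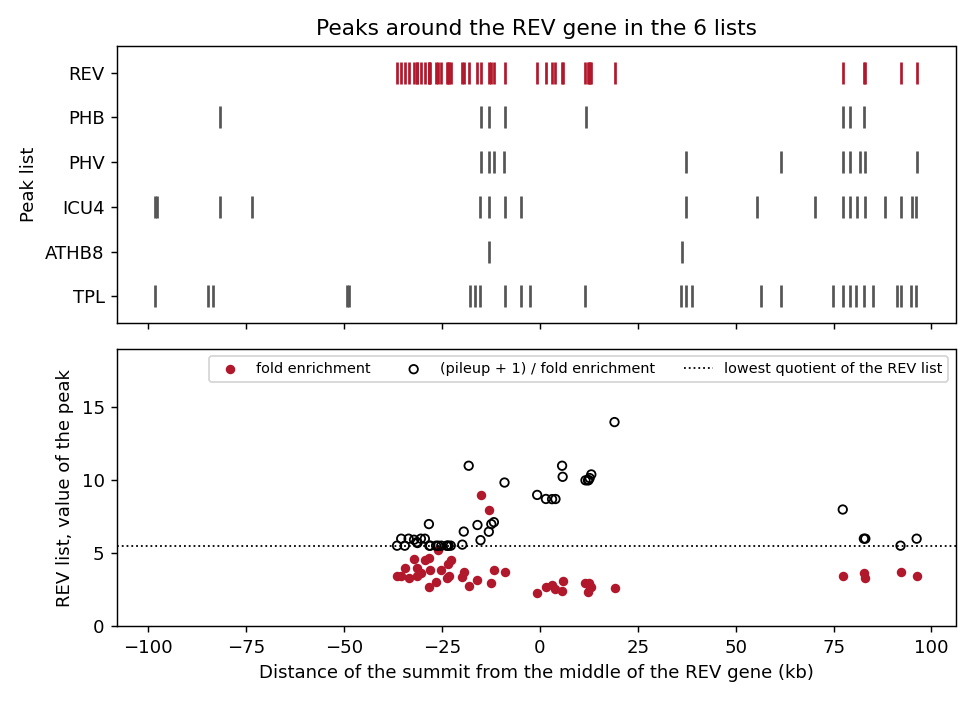
Above, summits of the 6 lists (ticks) within 100 kb of the REV gene, by distance from its middle. Below, for the REV list, the fold enrichment (filled) and the quotient of pileup plus 1 to fold enrichment (open); the run of 40 REV peaks spans 55.6 kb, and from REV to the end of that run no quotient is below 8.71.

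REV peaks were then read along known gene groups, beside a share of 5.74% among all 27444 nuclear protein-coding genes. Genes of the HD-ZIPII class, transcription factors of shade response and leaf polarity, had a peak in 6 of 10 cases. The highest was 7.95 at HAT1, from 9737989 to 9738292 on chromosome 4, then 6.04 at HAT2, 4.54 at HAT22 and 4.13 at ATHB-2, the last inside the gene. ATHB-4 had 3.51 and HAT3 3.65, outside the gene. Of 10 genes listed as published REV targets, 5 had a peak, namely HAT2, ATHB-2, HAT3, ATHB-4 and the abscisic acid receptor gene PYL6 at 3.04, and TAA1, YUC5, ZPR1, ZPR3 and WRKY53 had none. Within the HD-ZIPIII family, REV (2.70) and PHB (3.32) had a peak and PHV, ATHB-15 and ATHB-8 had none. Of the TPL family, TPR2 (4.399), TPL (3.34) and TPR3 (2.99) had one, outside the gene each time.

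Auxin genes were listed by role, and differences between roles were not tested. Of 12 auxin transport genes, 4 had a peak, among them the efflux carriers PIN7 (4.54, inside the gene) and PIN3 (3.45) and the influx carrier LAX1 (3.04). Of 14 synthesis genes only YUC6 had one, at 3.45, and no other list had a peak there. Of 29 Aux/IAA repressor genes 2 did, IAA2 (4.13) and IAA16 (3.87), and of 22 auxin response factor genes 2 did, ARF2 (7.13, from 24910154 to 24910553 on chromosome 5) and ARF19 (2.91). The synthesis, Aux/IAA and response factor shares, 7.14%, 6.90% and 9.09%, were near that of all genes.

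In other hormone pathways, 6 of 16 jasmonate genes had a peak, with JAZ3 (8.79) well above JAZ1 (3.93), JAZ7 (3.81) and JAZ6 (3.70). Brassinosteroid genes had peaks in 3 of 13 cases: the receptor gene BRI1 at 5.71, the synthesis gene CPD at 4.103 and the inactivating enzyme gene BAS1 at 3.67. Of 23 abscisic acid receptor and phosphatase genes, 5 had one, the highest being PP2CA at 3.43 and PYL5 at 3.24, before PYL6 and PYL4 (2.95). Among 21 gibberellin genes the 4 with a peak were DELLA repressor genes, RGL1 (4.13), GAI (3.05), RGL3 (3.04) and RGL2 (2.72). The DELLA gene RGA1 had none, and none of the metabolic genes had one. The list was not divided in this way beforehand. Beside a share of 5.74% of all protein-coding genes, the absence at the metabolic genes is not read as a result. ARR9 (3.21) was the only one of 10 type-A response regulator genes.

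For organ patterning, none of 14 leaf polarity genes, KANADI and YABBY genes among them, and none of 3 matched LITTLE ZIPPER genes, whose small products inhibit HD-ZIPIII proteins, had a REV peak. With a peak at 5.74% of all protein-coding genes, lists this short would often hold none, so these absences are not read as a result. Meristem and boundary genes had 3 of 15: BLR (4.81), KNAT6 (3.24) and CLV1 (2.73). Of 15 vascular genes the only one was REV itself, listed there as IFL1. PIF5 (4.65) and PAR1 (2.80) were 2 of 13 shade and phytochrome genes, and PRR9 (3.31) was 1 of 12 clock genes. The vascular and clock shares, 6.67% and 8.33%, were near that of all protein-coding genes. Of the 9 MIR165 and MIR166 genes, only MIR166G had a REV summit within 2000 bp, with a fold enrichment of 3.43 at 25503395 to 25503452 on chromosome 5. Of all 326 microRNA genes, 14 (4.29%) had one. These counts take every microRNA gene within 2000 bp of a summit, whereas the 5.74% takes only the nearest protein-coding gene. Counted like the microRNA genes, 2677 of 27444 protein-coding genes had one.

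The control list of photosynthesis genes stood beside these groups with the highest share, 14 of 22. They were listed as strongly transcribed genes, but transcript levels were not used here. The light-harvesting antenna genes LHCB1.1 and LHCB2.2 had fold enrichments of 6.31 and 6.18, and LHCB2.3 and LHCB1.5 had 5.77 and 5.63. Some of these genes are near-identical copies, between which reads may have been split. Listed genes without a peak included RBCS1A, RBCS1B and RBCS2B. At each gene's strongest peak, all 14 summits were inside the gene, whereas 5 of the 6 HD-ZIPII summits were outside. The part that transcription plays in the peaks of the other groups was not tested.

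Apart from the pseudogene class, classes without protein products described here held a REV summit in shares below the 5.41% of genes of all classes. A longer gene has more room for a summit, many genes of these classes are short, and lengths were not taken into account. The lower shares therefore do not show that REV peaks were rarer there per base. It was inside 16 of 625 tRNA genes (2.56%), the strongest at AT5G13845 (4.41), AT1G49020 (4.27) and AT5G40545 (4.13), and inside 102 of 3480 long non-coding RNA genes (2.93%), led by AT3G02405 at 6.19, AT1G09133 at 6.17 and AT2G09535 at 6.12. Of 82 small nuclear RNA genes 4 did (4.88%), the highest being U1.6 at 3.75. None of 326 microRNA or 287 small nucleolar RNA genes did.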

How the data were processed

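The submitters' processing notes name Bowtie2, MACS2 and the TAIR10 build, without versions or parameters. Per the file headers, the deposited lists give for each peak a start, end, length, summit, pileup (a coverage signal of unstated scale), p-value and q-value as −log10, and fold enrichment (a linear ratio of immunoprecipitated to background signal). These are the authors' values and were used only within a list. Positions are 1-based, since the length equalled end minus start plus 1 in all 5815 REV rows, of which 1 is not nuclear and was left out.

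With Python 3.11.15, pandas 2.3.3 and SciPy 1.17.1, each summit was given to its nearest protein-coding gene of the RefSeq table of assembly TAIR10.1, used for names and neighbourhood only. Intervals are Wilson intervals. The functions were tested on simulated data. Gene lists numbered 20, with 284 of 285 memberships matched. ZPR4 is not protein-coding in the table. Named genes were the 20 with the strongest peaks, up to 4 per list, the 10 strongest distant peaks, the 5 largest clusters, the 3 peaks on each side of the distance limit, up to 3 genes of other classes each, the HD-ZIPIII genes and TPL. The widest peaks, the genes with most peaks and the published targets without a peak were named outside this rule, after their values were seen. The same holds for the RBCS and DELLA genes named without a peak. The members and lists were chosen with earlier results of these data known. Motifs were not searched, as no sequence was used here.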

Additional observations from a re-analysis of the deposited data

Results flagged for a closer look

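The REV list held 1 peak outside the nuclear chromosomes, which entered no comparison. It was on the mitochondrial chromosome, from 17123 to 17189, with a pileup of 39.9, a fold enrichment of 1.92 and a −log10 q of 1.87, and there was no plant without a tag to set beside it.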

How the results depend on the processing

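Restricting the list to peaks with a −log10 q at or above its median of 4.94 left 2956 peaks and 562 genes. The near-gene share then fell to 24.97%, the clustered share was 55.6%, and the difference in median fold enrichment (near-gene minus distant) shrank from -0.68 to -0.14. Of near-gene peaks, 54.1% then overlapped PHB, 51.6% PHV, 37.9% ATHB8, 61.8% TPL and 62.9% ICU4, and of distant peaks 14.2% PHV, 51.1% ATHB8 and 1.13% TPL. The near-gene share was 35.4% with a limit of 1000 bp, 50.2% with 5000 bp and 90.9% when genes of every class counted, since pseudogenes then count as genes. With 5000 bp the difference in medians was -0.55. Clusters held 45.5% of peaks with gaps up to 1000 bp, 69.2% with 5000 bp and 40.5% when at least 5 peaks were asked for. With summits within 100 bp in place of overlap, PHB met 32.2% of near-gene and 4.07% of distant peaks, PHV 30.01% and 8.74%, ICU4 39.9% and 4.82%, ATHB8 15.7% and 39.6%, and TPL 27.9% and 1.36%. Under this criterion and under the stricter q limit, ICU4, not TPL, had the highest near-gene share. Giving a peak to every gene within 2000 bp made 2677 genes. The distant majority of peaks became a near-gene majority with 5000 bp and with genes of every class. The difference in median fold enrichment kept its sign under each alternative run, and overlap was higher near genes for every list but ATHB8. Leaving out the peaks within 25 kb of REV, chosen after seeing the data, gave a near-gene share of 40.1%. No paired analysis was possible because each group has 1 list and no result comes from a test. No replicate could be left out. The unknown read depth limits what a missing peak can mean.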
